A study of Rattus norvegicus with 6 samples.

Results

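The smooth muscle contractile and cytoskeletal apparatus was examined in rat aorta as a set of 41 genes, chosen by name. They encode actins, myosins, their regulators, and the proteins of dense bodies and focal adhesions. All 41 symbols were present among the 24005 gene symbols of the expression table, and all 41 passed the expression minimum (a mean FPKM of at least 1), as did 11742 genes in all. FPKM counts the reads of a gene per unit of its length and of the library's depth. The libraries came from aorta of rats with chronic kidney disease, which was produced by removing 5/6 of the kidney mass in 2 operations. All animals ate a diet with 1.2% phosphorus, given to speed up calcification. The exosome group (3 libraries) was given the vesicles named ANCR/E7-EXO by tail vein, 10 mg/kg at a time with 5 days between doses, and the saline group (3 libraries) received saline for 13 weeks. No healthy animals were compared here, so every library carries the kidney disease and the diet. Whether each library stands for its own rat is not stated in the labels, and the p-values therefore reflect how far these libraries spread, which may be technical.

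Smooth muscle cells contract when myosin filaments pull on actin filaments that are anchored in dense bodies in the cytoplasm and in adhesion plaques at the membrane. Calcium bound to calmodulin switches on myosin light chain kinase, which phosphorylates the myosin regulatory light chain, and myosin phosphatase removes that phosphate. The kinases encoded by Rock1 and Rock2 inhibit the phosphatase and so raise force at a given calcium level. In the aorta the smooth muscle forms among these genes mark the contractile state of the medial cells. Others, such as Vim, Myh9 and Myh10, are also expressed by non-muscle cells. A fall of the contractile genes together with a gain of non-muscle cytoskeletal genes is known from smooth muscle cells that left the contractile state. Many genes of the set are switched on by serum response factor (SRF), which binds a sequence element named the CArG box, together with the coactivators myocardin and the MRTF proteins.

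Since that element links many of the genes, RefSeq promoter sequences of the GRCr8 build were searched for it, and the matches are shown here. The windows ran from 250 bases before to 50 bases after the gene start, and the CArG box was taken as CC, 6 letters that are all A or T, and GG, which reads alike on both strands. Of the 36 genes of the set with a promoter in the table, 4 held a match (11.1%), against 1.77% of the 27457 genes in the table. When 1 of the 6 inner letters could be C or G, 5 of the 36 held a match (13.9%), against 10.1% of all genes. Acta2, which encodes smooth muscle alpha-actin, was the gene added, with 2 such elements at 134 to 125 and at 84 to 75 bases before its start. The lines below give each matching stretch, 5′ to 3′ on the strand of the gene, with the CArG match in capitals.
Acta2 (chr1:241172558-241172657, minus strand): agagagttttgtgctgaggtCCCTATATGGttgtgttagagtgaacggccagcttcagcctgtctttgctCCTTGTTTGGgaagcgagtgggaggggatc
Cnn2 (chr7:10370354-10370403, minus strand): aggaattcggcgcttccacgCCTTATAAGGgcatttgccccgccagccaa
Svil (chr17:57462661-57462690, minus strand): ctccattagctgctatcaggCCATAAAAGG
Ldb3 (chr16:9924702-9924751, minus strand): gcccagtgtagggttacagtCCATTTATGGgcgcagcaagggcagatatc
Dmd (chrX:51205968-51206017, plus strand): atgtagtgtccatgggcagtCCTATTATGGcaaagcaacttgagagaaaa
A match is a description of letters in a promoter and not a measured binding site, and the absence of a match says only that these letters are not in the window. Tagln, Lmod1, Myh11, Myl9 and Pdlim3 had no entry in the promoter table.

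The defining genes of smooth muscle were abundant in these libraries labelled aorta, though they cannot tell aorta from other smooth muscle tissue. Acta2 had the fourth highest mean FPKM of all gene symbols and Tagln the fifth. Together the 41 genes took 9.695%, 6.67% and 6.379% of all FPKM in saline 1, 2 and 3, and 9.623%, 7.535% and 8.561% in exosome 1, 2 and 3. The group values were 7.58% ± 1.84 with saline and 8.57% ± 1.04 with exosomes (mean ± SD, n = 3 each), and the groups overlapped because saline 1 was the highest library of all. In a bulk sample such as this, fewer smooth muscle cells and less RNA per cell cannot be told apart. The values rest on 772 (Ldb3) to 529367 (Acta2) recovered reads per gene and library, from library totals of 28063355 to 44561082, so counting error is small beside the spread between libraries.

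Several libraries stood apart before any group comparison. Within the saline group, saline 1 was the highest library for 36 of the 41 genes (87.8%), against 28.7% of all genes tested. Within the exosome group, exosome 2 was the lowest library for 22 of the 41 (53.7%), against 23.7% of all genes tested. Exosome 3 held heart muscle transcripts that were low in the other libraries, though not all markers of striated muscle followed this. Its Myh7 and Tnnt2, the heart forms of myosin and troponin T, stood at 5.68 and 8.58 FPKM, where the other 5 libraries reached at most 0.0357 and 0.711. Actc1, the heart actin, was about as high in saline 1 (29.1 FPKM) as in exosome 3 (33.0 FPKM), against 0.239 to 4.65 FPKM in the other 4 libraries. Acta1, the skeletal actin, was highest in saline 1, at 39.1 FPKM, against 24.4 FPKM in exosome 3. Heat shock genes summed to 4515 and 8169 FPKM in exosome 1 and 3, against 951 in exosome 2 and 1124 to 1758 in the saline libraries. Immediate early genes summed to 1075, 1969 and 2318 FPKM in saline 1, 2 and 3 and to 516 to 837 FPKM with exosomes. These sums differed by group and not by single library, since every exosome sum lay below every saline sum. Adipocyte markers were highest in saline 2 (1273 FPKM summed) and exosome 2 (833 FPKM), against 439 to 527 FPKM in the other 4 libraries. The part of these lists in the results that follow was not tested.

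**Figure D1:**
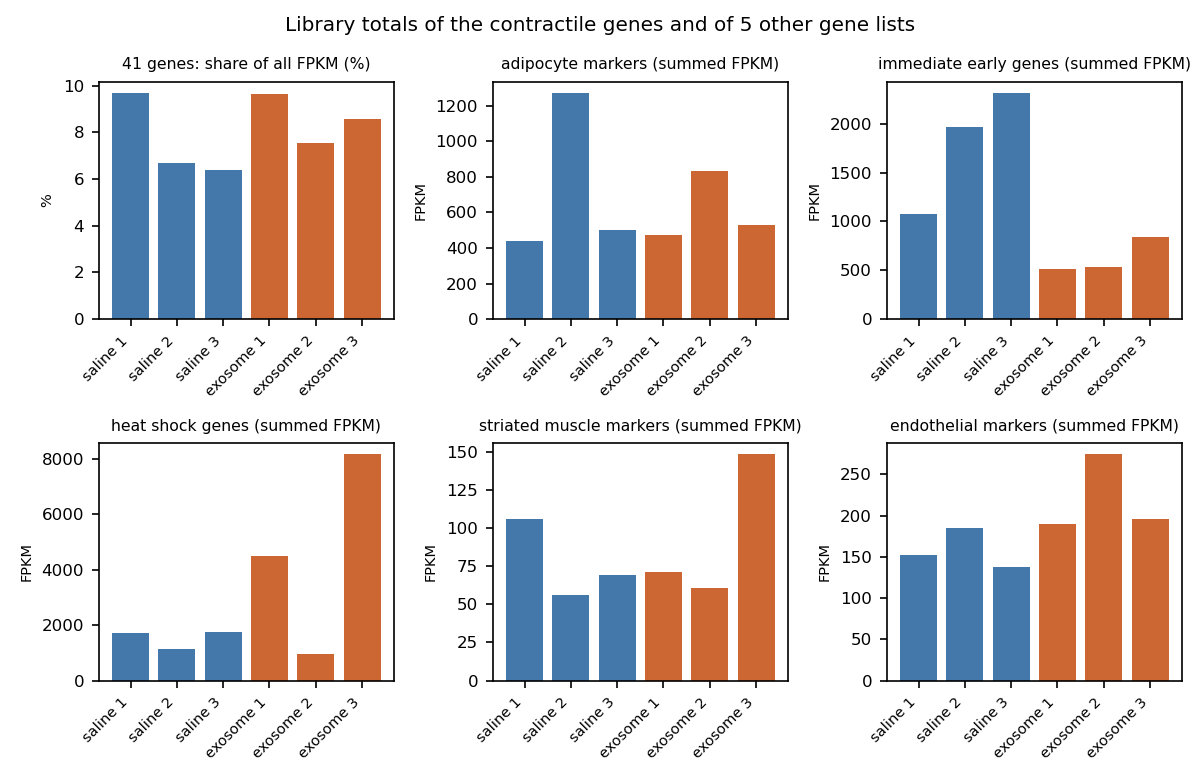
Share of all FPKM taken by the 41 genes (percent) and summed FPKM of 5 other gene lists, one bar per library, saline in blue and exosome in orange. The 41 genes take most in saline 1 (9.695%) and exosome 1 (9.623%), while heat shock genes peak in exosome 3 (8169 FPKM) and adipocyte markers in saline 2 (1273 FPKM).

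The comparison asked whether the apparatus differed between exosome-treated and saline-treated aorta. No gene of the set passed limma's threshold (Benjamini-Hochberg adjusted p under 0.05 over 11742 genes), where 0.00852% of all genes tested passed. Adjusted p ranged from 0.25 for Rock1 to 0.995 for Dmd. At an unadjusted p under 0.05, 9 of the 41 genes (22%) were higher and none lower, against 6.75% higher and 9.24% lower among all genes tested. The genes were Rock1, Rock2, Pdlim5, Cnn2, Cnn3, Nexn, Pdlim3, Ppp1r12a and Des. In all, 30 of the 41 genes (73.2%) had a positive log2 difference, against 39.3% of all genes, and their median was 0.24, against -0.07 for all genes. The exosome and saline libraries did not overlap for 4 of the 41 genes (9.76%), all higher. Among all genes tested, 9.4% had all exosome libraries on the higher side, 11.7% on the lower side and 21.1% on either side, so the share with higher values was near the background.

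Those counts moved with single libraries. No gene of the set passed the adjusted threshold without saline 1, where 0.0766% of all genes did. The count of genes whose groups did not overlap was 22 of 41 (53.7%, against 39.9% of all genes) without saline 1, 10 without exosome 1 (24.4%, against 27.7%) and 12 without exosome 2 (29.3%, against 48.4%). It was 5 without saline 2 (12.2%, against 29.7%) or saline 3 (12.2%, against 26.9%), 6 without exosome 3 (14.6%, against 25.8%) and 14 with exosome 1 and 3 both left out (34.1%, against 51.5%). The count was 9 (22%, against 19.7%) when each library was scaled to the same sum of FPKM. It was 3 (7.32%, against 22.5%) with median-of-ratios scaling, where the groups overlapped for Des. Quantile normalization also gave 3 (7.32%, against 21.9%), with overlapping groups for Cnn2. The median log2 difference was 0.37 without saline 1 and 0.07 without saline 3. With library weights, 16 of the 41 genes passed the adjusted threshold, all higher, but so did 27.8% of all genes tested. That weighting gave exosome 1 a weight of 9.2 and exosome 2 one of 0.305, and its estimate stopped before it converged. A gene-by-gene estimate of the weights called 3 of the 41 genes, Rock1, Rock2 and Pdlim5, beside 5.26% of all genes. A fit with limma-voom on recovered reads called none of the 41.

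**Figure D2:**
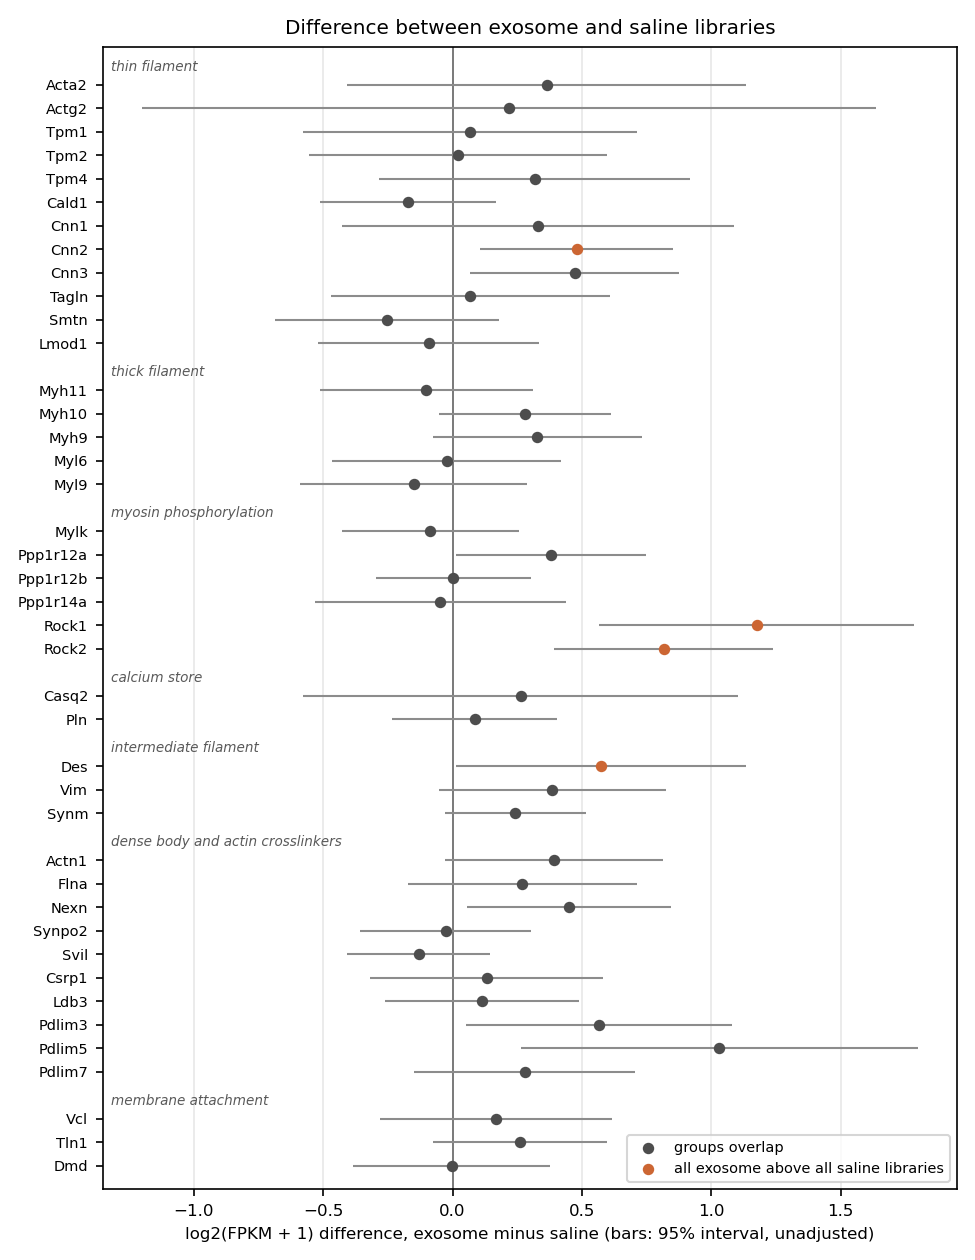
Difference in log2(FPKM + 1), exosome minus saline, for each of the 41 genes by role, with limma's 95% interval (not adjusted for the number of genes). Orange points mark the 4 genes whose 3 exosome libraries all lie above the 3 saline libraries: Cnn2, Rock1, Rock2 and Des.

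Among the 6 genes that set the phosphorylation of myosin, 4 were higher and 2 lower, with a median log2 difference of 0.19, and they included Rock1, which had the largest difference of the set. Rock1, which encodes one of these phosphatase-inhibiting kinases, stood at 105 FPKM in saline 1, 71.4 in saline 2 and 58.4 in saline 3, and at 229.6, 133.6 and 168.7 FPKM in exosome 1, 2 and 3. The groups did not overlap, and exosome 1 and saline 3 were the extremes. The ratio of the group means was 2.26, and the log2 difference was 1.18 with a standard error of 0.26 (limma adjusted p = 0.25). Rock2, its close relative, stood at 76.05, 69.5 and 65.45 FPKM with saline and at 134.0, 93.8 and 152.8 FPKM with exosomes. The saline values of Rock2 were close together, while exosome 2 lay well below exosome 1 and 3. Its ratio of means was 1.80, and its log2 difference was 0.82 with a standard error of 0.18 (limma adjusted p = 0.254). With exosome 1 and 3 both left out, the log2 differences were 0.81 for Rock1 and 0.41 for Rock2, with exosome 2 as the lone treated library.

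Myosin phosphatase consists of a catalytic subunit and a targeting subunit that binds myosin. Ppp1r12a encodes the widely expressed targeting subunit MYPT1, which those kinases phosphorylate. It stood at 176, 142 and 137 FPKM in saline 1, 2 and 3, and at 236, 172 and 187 FPKM in exosome 1, 2 and 3. Exosome 2 lay just below saline 1, so the groups overlapped, with a log2 difference of 0.38 ± 0.16 (SE) and a limma adjusted p of 0.307. Its muscle-rich relative Ppp1r12b (MYPT2) ranged over 296 to 366 FPKM with saline and 297 to 349 FPKM with exosomes. Its log2 difference of 0.002 became -0.02 under quantile normalization. Ppp1r14a encodes CPI-17, an inhibitor of the phosphatase. It ranged over 191 to 325 FPKM with saline and 209 to 274 FPKM with exosomes, with a log2 difference of -0.05 (0.02 after median-of-ratios scaling).

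Mylk encodes myosin light chain kinase, the enzyme that opposes the phosphatase. It stood at 411, 337 and 343 FPKM in saline 1, 2 and 3 and at 401, 315 and 314 FPKM in exosome 1, 2 and 3, so that library 1 was the highest of each group. Its log2 difference was -0.09 ± 0.15 (SE), with a limma adjusted p of 0.769. The ratio of Mylk to Ppp1r12a within a library does not depend on how libraries are scaled, apart from the pseudocount. On the log2 scale it was 1.217, 1.239 and 1.315 with saline and 0.760, 0.866 and 0.744 with exosomes. The groups did not overlap, and the difference of -0.47 was large beside the SDs of 0.05 with saline and 0.07 with exosomes (n = 3 each). The two-sided exact permutation test gave p = 0.1, the smallest that 3 against 3 libraries allow, and 0.6 after adjustment over the 6 ratios tested.

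**Figure D3:**
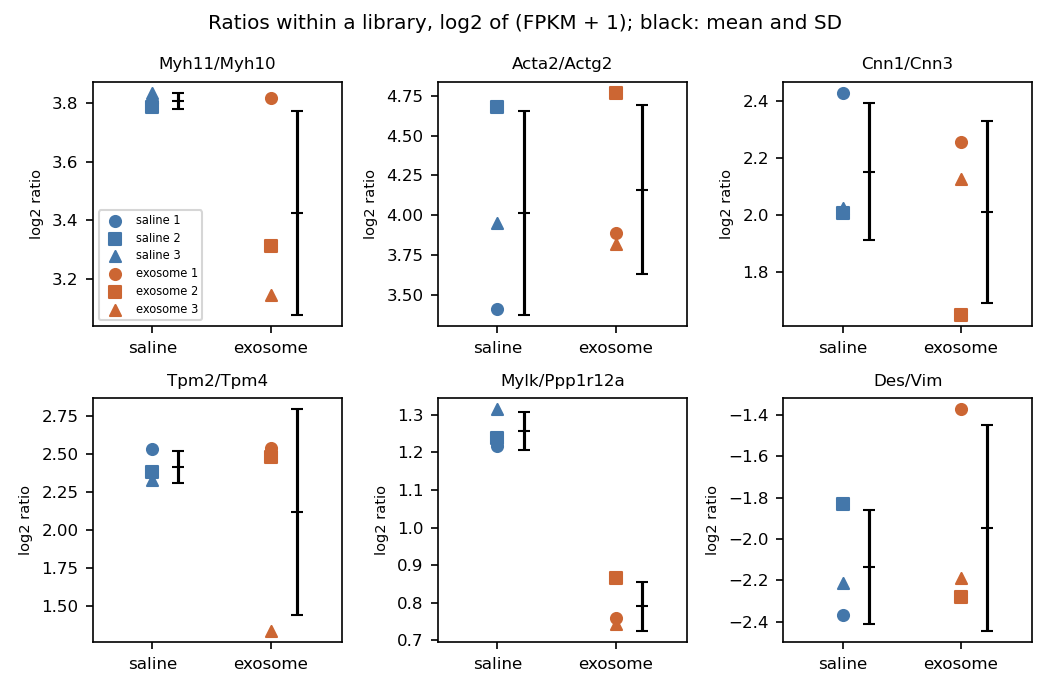
Log2 ratio of 2 genes within each library, from FPKM + 1, for 6 pairs, by group, with the mean and SD (n = 3) in black. The groups separate for Mylk/Ppp1r12a only, at 1.26 ± 0.05 with saline and 0.79 ± 0.07 with exosomes, and the Myh11/Myh10 ratio is spread more widely among the exosome libraries than among the saline libraries.

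Of the 12 thin filament genes, 9 were higher and 3 lower, with a median log2 difference of 0.14, and Acta2 had the highest level. It stood at 8997, 4989 and 4584 FPKM in saline 1, 2 and 3 and at 9086, 5654 and 8516 FPKM in exosome 1, 2 and 3. Saline 1 thus lay with exosome 1 and 3, and exosome 2 with saline 2 and 3, so the groups overlapped. The 95% interval of its log2 difference (limma, not adjusted) ran from -0.41 to 1.13 around an estimate of 0.36, which was 0.67 without saline 1, 0.58 without exosome 2, 0.24 and 0.18 without saline 2 and 3, and 0.23 without exosome 1. Actg2 encodes gamma-2 actin, the actin typical of gut and other visceral smooth muscle. It had the same 3 highest libraries with a wider range, at 846, 193 and 296 FPKM with saline and 612, 206 and 603 FPKM with exosomes. Its standard error of 0.61 was the largest of the set. The Acta2 to Actg2 ratio did not separate the groups (exact permutation p = 0.8). Actins are so alike that reads could be assigned to the wrong member, and how the authors counted such reads is not given in the sources used here.

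Calponins are actin-binding proteins that slow myosin, and the 3 members did not follow 1 pattern. Cnn1, the smooth muscle form, had the same 3 highest libraries as Acta2, at 1671, 914 and 888 FPKM with saline and 1649, 943 and 1730.0 FPKM with exosomes. Cnn2, found also in non-muscle cells, stood at 90.7, 64.8 and 61.6 FPKM with saline and 93.7, 98.3 and 108 FPKM with exosomes. For Cnn2 even exosome 2 lay above all saline libraries, by contrast with Cnn1, with a log2 difference of 0.48 ± 0.16 (SE) and a limma adjusted p of 0.279. Cnn2 is also the calponin whose promoter holds the full CArG match printed above. The other genes with a full match, Svil, Ldb3 and Dmd, had log2 differences of -0.13, 0.115 and -0.003, with overlapping groups. A link between the match and the level was not tested. Cnn3, the acidic calponin, stood at 309.7, 227 and 218 FPKM with saline and 345, 300.4 and 396 FPKM with exosomes, so that exosome 2 fell below saline 1. Its log2 difference was 0.47 ± 0.17 (SE), with a limma adjusted p of 0.289. The ratio of Cnn1 to Cnn3 overlapped between groups (exact permutation p = 0.6).

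Tropomyosins lie along the actin filament and gate the access of myosin. Tpm1 ranged over 1370.0 to 2783 FPKM with saline and 1657 to 2159 FPKM with exosomes, and Tpm2 over 1284 to 2240.0 and 1395 to 2033 FPKM. The log2 differences of Tpm1 and Tpm2 were 0.07 and 0.02, and the exosome values lay inside the saline range for both. Tpm4, which is more abundant in non-muscle cells, stood at 387, 295 and 255 FPKM with saline and at 349.8, 292 and 552 FPKM with exosomes. Exosome 3 alone lay above the saline range, and the log2 difference of 0.32 was 0.06 without it. The other thin filament genes were close to 0 or lower. Tagln (SM22-alpha) had a log2 difference of 0.07, Lmod1, a leiomodin that starts new actin filaments, -0.09, and Cald1, which encodes caldesmon, -0.17. Smtn, which encodes smoothelin of fully differentiated smooth muscle, had the lowest value of the set with all libraries, -0.25 ± 0.19 (SE), but it was -0.08 without exosome 3 and -0.43 without exosome 2. Smtn stood at 279.9, 267 and 319 FPKM with saline and at 239.6, 309.5 and 189 FPKM with exosomes. Its lowest library was exosome 3 and its highest saline 3, so its high and low libraries were not those of Acta2.

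**Figure D4:**
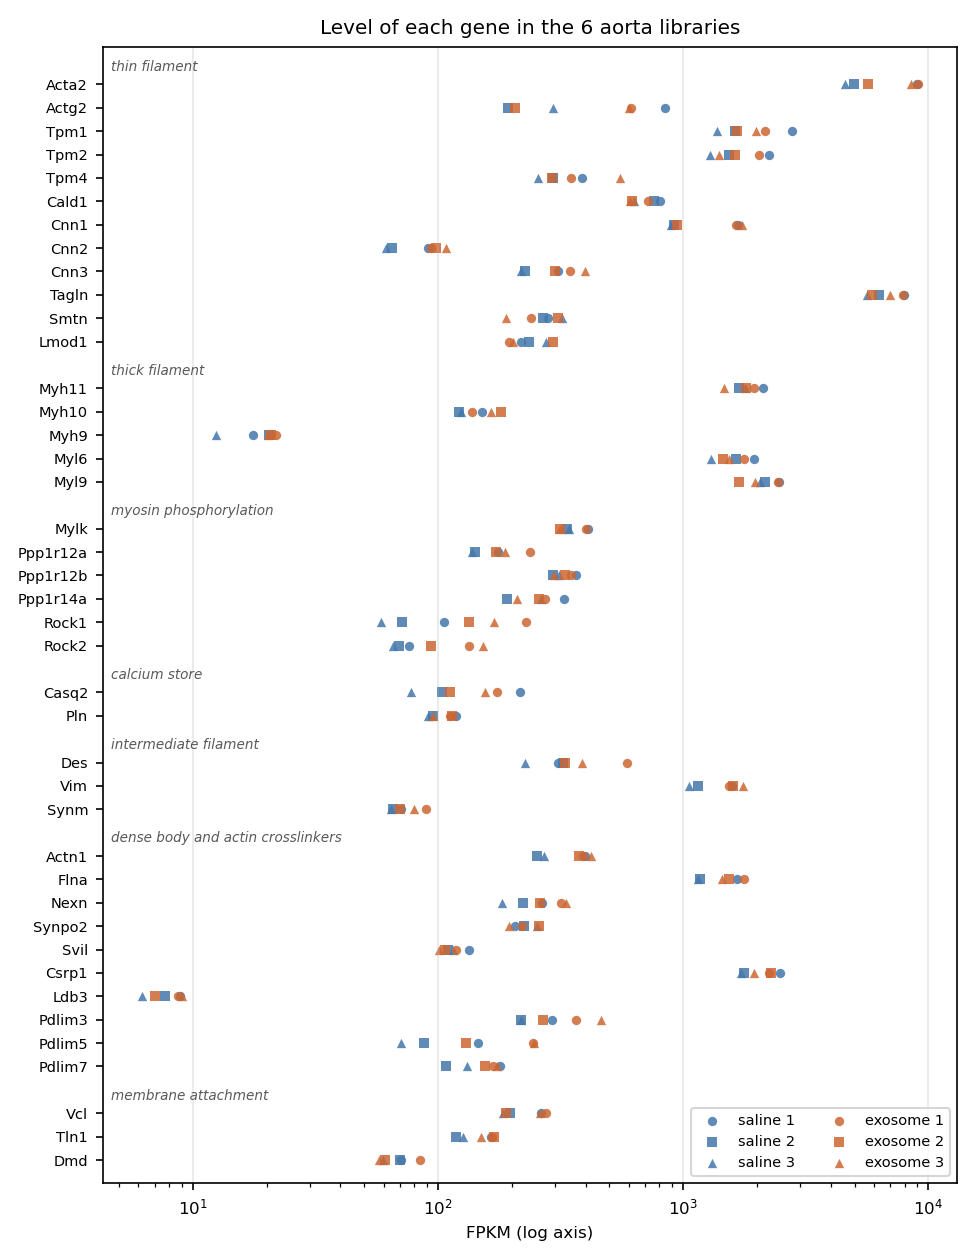
FPKM of each gene on a log axis in the 6 libraries, by role, with saline in blue, exosome in orange and the shape giving the library number. Acta2 and Tagln have the highest levels, Ldb3 lies below 10 FPKM in every library, and for Acta2, Actg2 and Cnn1 saline 1 lies with or above exosome 1 and 3.

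Of the 5 myosin genes, 2 were higher and 3 lower, with a median log2 difference of -0.02. Myh11, the smooth muscle heavy chain, stood at 2109, 1694 and 1783 FPKM in saline 1, 2 and 3 and 1946, 1808 and 1463 FPKM in exosome 1, 2 and 3. Exosome 3 was the lowest library, and the 95% interval of the log2 difference ran from -0.51 to 0.31. Myh10, the non-muscle heavy chain that embryonic and modulated smooth muscle cells also use, stood at 151, 122 and 124 FPKM with saline and 137, 181 and 164 FPKM with exosomes. The highest Myh10 values were those of exosome 2 and 3, but exosome 1 lay inside the saline range (log2 difference 0.28 ± 0.14 SE, limma adjusted p = 0.362). The log2 ratio of Myh11 to Myh10 was 3.80, 3.79 and 3.84 with saline and 3.82, 3.31 and 3.15 with exosomes. Its SD was 0.03 with saline and 0.35 with exosomes, and the exact permutation test gave p = 0.3. Myh9, the other non-muscle heavy chain, was far lower per length, at 17.6, 20.4 and 12.5 FPKM with saline and 21.9, 20.8 and 20.3 FPKM with exosomes. Its exosome values were close together, its saline values were not, and saline 2 lay inside the exosome range. The light chains Myl9, which carries the phosphorylation site, and Myl6, the essential chain, had log2 differences of -0.15 and -0.02, and that of Myl6 turned positive (0.01 and 0.05) when libraries were scaled to equal sums or to the median of ratios.

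The sarcoplasmic reticulum stores the calcium that starts contraction. Casq2, which encodes the calcium-binding protein calsequestrin 2, stood at 215, 104 and 77.4 FPKM with saline and 174, 112 and 155 FPKM with exosomes. Saline 1 was the highest library and the groups overlapped, and its log2 difference was 0.26 ± 0.36 (SE). Pln encodes phospholamban, which restrains the calcium pump, and it ranged over 90.8 to 118.5 FPKM with saline and 95.1 to 114.5 FPKM with exosomes. Both genes are also used by heart muscle. Without exosome 3, the library with heart transcripts, the log2 differences were 0.21 for Casq2 and 0.17 for Pln, against 0.09 for Pln with it.

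The 3 intermediate filament genes had higher means with exosomes, with a median log2 difference of 0.385. The groups did not overlap for 1 of them, Des, and they did overlap for it with median-of-ratios scaling. Separation with higher values was found for 9.4% of all genes tested, and 3 genes are too few to compare with that share. Des encodes desmin, the muscle intermediate filament protein. It stood at 307, 323 and 227 FPKM in saline 1, 2 and 3 and at 591, 328 and 385 FPKM in exosome 1, 2 and 3. Exosome 1 was far above all others, and exosome 2 exceeded saline 2 by only about 5 FPKM. Its log2 difference was 0.57 ± 0.24 (SE; limma adjusted p = 0.309), which was 0.33 without exosome 1 and 0.64 without exosome 3. Vim, which encodes vimentin of mesenchymal cells generally, stood at 1589, 1149 and 1057 FPKM with saline and 1531, 1597 and 1758 FPKM with exosomes. Saline 1 reached the exosome values, and the log2 difference was 0.39 ± 0.19 (SE). Synm encodes synemin, a partner of desmin and vimentin, and had a log2 difference of 0.24 ± 0.12 (SE), with exosome 2 inside the saline range. The Des to Vim ratio did not separate the groups (exact permutation p = 0.6).

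Dense bodies are the smooth muscle counterparts of Z-discs, and the PDLIM proteins tether enzymes and alpha-actinin there. Of the 10 genes of dense bodies and actin crosslinking, 8 were higher and 2 lower, with a median log2 difference of 0.27. Pdlim5 (ENH) stood at 146, 87.5 and 70.7 FPKM with saline and at 245, 129.9 and 246 FPKM with exosomes. Exosome 2 lay below saline 1, while exosome 1 and 3 exceeded every saline library. Its ratio of means was 2.04, and its log2 difference was 1.03 ± 0.33 (SE), with a limma adjusted p of 0.27. Pdlim3 (ALP) stood at 292, 218 and 219 FPKM with saline and 367, 267 and 464 FPKM with exosomes, with the same overlap. Its log2 difference of 0.57 was 0.38 without exosome 3. Pdlim7 (Enigma) ranged over 108 to 179 FPKM with saline and 155 to 174 FPKM with exosomes. Its log2 difference of 0.28 was 0.47 without saline 1 and 0.11 without saline 2. Nexn encodes nexilin, an actin-binding protein of Z-discs and adhesions. It stood at 265, 223 and 182 FPKM with saline and 317, 260.2 and 333 FPKM with exosomes. Its log2 difference was 0.45 ± 0.17 (SE), and exosome 2 lay just below saline 1.

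The remaining crosslinkers split. Actn1 (alpha-actinin 1) and Flna (filamin A), which bundle actin, had log2 differences of 0.39 and 0.27. Actn1 stood at 397, 253 and 271 FPKM with saline and 392, 374 and 420.2 FPKM with exosomes. Only saline 1 kept the Actn1 groups from separating. Csrp1, a LIM protein among the most abundant of the set, had a log2 difference of 0.13, and Ldb3 (Cypher/ZASP), the least abundant at 6.18 to 9.07 FPKM, of 0.115. Synpo2 (myopodin) and Svil (supervillin) were at -0.03 and -0.13, and Synpo2 was at 0.01 and 0.04 when libraries were scaled to equal sums or to the median of ratios. At the membrane, Vcl (vinculin) and Tln1 (talin 1), which link actin to integrins, had log2 differences of 0.17 and 0.26. Dmd, which encodes dystrophin and links actin to the laminin receptor complex, stood at -0.003, and at 0.03 to 0.07 after those 2 scalings.

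**Figure D5:**
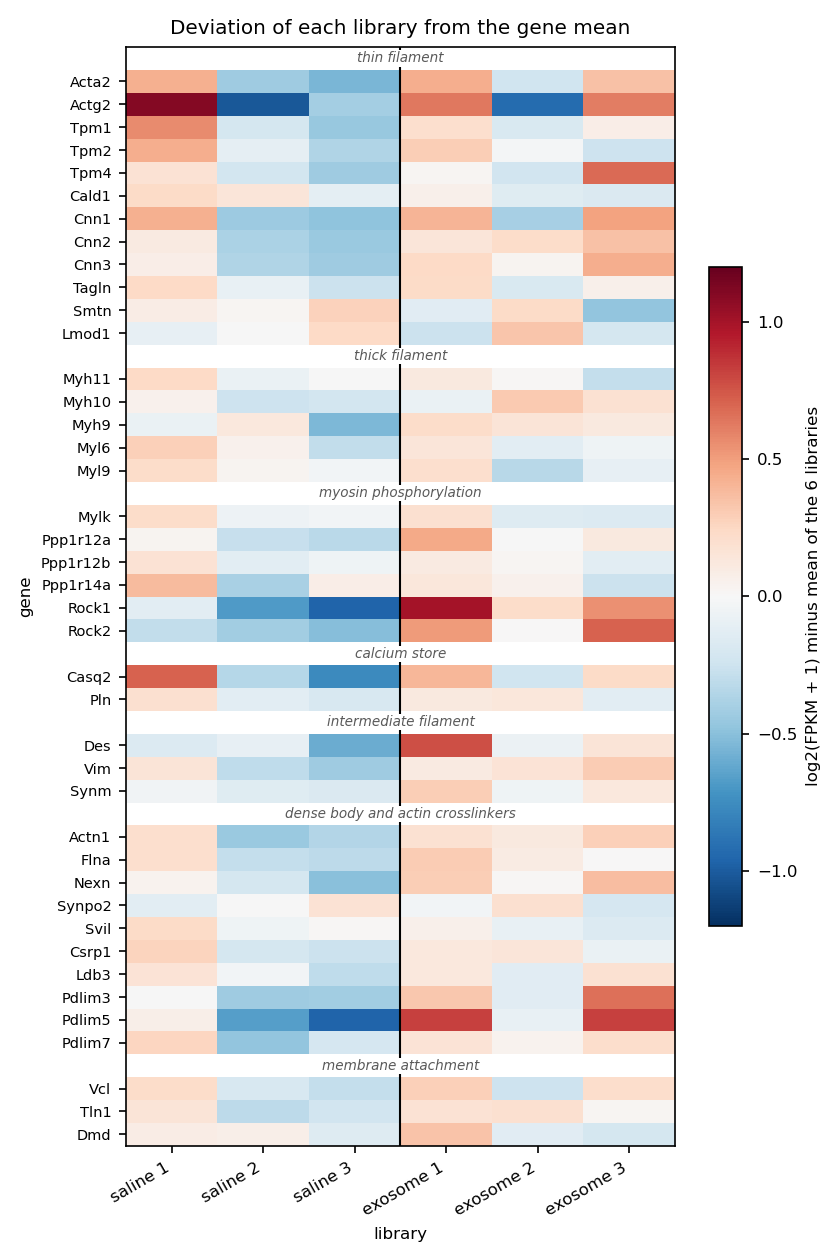
Log2(FPKM + 1) of each gene in each library minus the mean of the 6 libraries, red higher and blue lower, grouped by role. Most genes are red in saline 1 and exosome 1 and blue in saline 2 and 3, Rock1, Rock2 and Pdlim5 are highest in exosome 1 and 3, and Smtn and Lmod1 are highest in saline 3 and exosome 2.

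Other genes of contraction and adhesion gave a background for the set. Of a list of 48, 47 were found and 46 tested, and none passed limma's adjusted threshold. At an unadjusted p under 0.05, 10 were higher and 2 lower, where 6.75% of all genes tested were higher and 9.24% lower. In all, 36 of the 46 (78.3%, against 39.3% of all genes) had a positive log2 difference, with a median of 0.13. The groups did not overlap for 12 (26.1%, against 21.1% of all genes tested), 11 of them higher and 1 lower. Among all genes tested, 9.4% had all exosome libraries on the higher side and 11.7% on the lower side. Of the 46 genes, the 4 with the smallest p were all higher. Pxn encodes paxillin, an adhesion adaptor, and stood at 39.5, 34.4 and 37.8 FPKM with saline and 47.1, 55.7 and 55.1 FPKM with exosomes (log2 difference 0.49 ± 0.11 SE, limma adjusted p = 0.255). Ppp1r12c, the third targeting subunit of the phosphatase family, had values of 86.8, 66.1 and 51.7 FPKM with saline and 107.0, 109.1 and 107.5 FPKM with exosomes. For both genes exosome 2 lay with the other exosome libraries and the groups did not overlap. Pdlim1 (log2 difference 0.70) and Dtna, a dystrobrevin of the dystrophin complex (0.33), followed.

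Among the SRF coactivators, Mrtfa, listed under its older symbol Mkl1, stood at 10.4, 7.96 and 9.36 FPKM with saline and 22.04, 12.9 and 16.6 FPKM with exosomes. Its log2 difference was 0.81 ± 0.20 (SE; limma adjusted p = 0.255). Myocd stood at 15.24, 14.27 and 21.35 FPKM with saline and 38.56, 30.9 and 30.04 FPKM with exosomes. The Myocd log2 difference was 0.94 ± 0.17 (SE; limma adjusted p = 0.237). Neither gene passed the adjusted threshold. The groups did not overlap for Mrtfa and Myocd, both higher, a pattern found for 9.4% of all genes tested. Srf (0.25) and Mrtfb (-0.13) had overlapping groups.

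Marker genes of other cells were summed in the same libraries. Striated muscle markers summed to 55.8 to 106 FPKM with saline and 60.4 to 148 FPKM with exosomes. Of the 26 listed, 11 stayed under 1 FPKM in every library, and Myh4 of fast skeletal muscle was listed at 0 throughout. Endothelial markers summed to 138 to 184 FPKM with saline and 190.2 to 274 FPKM with exosomes. Macrophage markers summed to 164.1 to 171.5 FPKM with saline and 177.5 to 229.9 FPKM with exosomes. The endothelial and macrophage sums thus separated the groups, though the nearest libraries were close (184 against 190.2 and 171.5 against 177.5 FPKM). Single markers were mixed. Of the 12 endothelial markers 9 were higher and 3 lower, and the groups did not overlap for 5. Of the 10 macrophage markers 8 were higher and 2 lower, and the groups did not overlap for 5. The markers without overlap were all higher, a pattern found for 9.4% of all genes tested. Adventitial fibroblast markers (2021 to 2906 and 2095 to 2470.0 FPKM), adipocyte markers (439 to 1273 and 472 to 833 FPKM) and Schwann cell markers (125 to 160.3 and 112 to 143 FPKM) overlapped between groups. None of the endothelial, fibroblast, adipocyte or macrophage markers found stayed under 1 FPKM in every library, and their part in the differences of Vim, Myh9, Myh10, Cnn2 and Flna, which non-muscle cells also express, was not tested.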

How the data were processed

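RNA of rat aorta was sequenced in 6 libraries, 3 per group, with groups taken from the treatment in the labels and library numbers from the titles. The authors deposited 1 table of FPKM. The submitters' processing notes name DESeq2 1.28.1 without a role. Aligner, counting, strand setting, build and annotation were not given in the sources used here. Within a library each gene's FPKM came in steps of 1 read, which gave whole reads for 18430 genes (100.0% of those above 0, within 0.02 reads) and library totals of 28063355 to 44561082.

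The test was limma 3.58.1 (R 4.3.3) on log2(FPKM + 1) with an intensity trend, two-sided, over 11742 genes (mean FPKM at least 1), with Benjamini-Hochberg adjustment and a threshold of 0.05. That scale understates changes of low genes. Ratios used an exact permutation test (scipy 1.17.1). The fit was also run on simulated data with independent noise in each gene and library, and no result here rests on that run. All 41 genes are named, and 4 of the wider list by smallest p. The genes and lists were chosen with earlier results of these data known. Alternatives were other pseudocounts (0.1, 0.01), filters, scalings, moderations, library weights, a replicate block, libraries left out and limma-voom. The gene-by-gene weights were added after seeing the data. No protein sequences were used here.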

Additional observations from a re-analysis of the deposited data

How the results depend on the processing

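The 41 genes gave no adjusted call with other pseudocounts, filters, scalings, moderation, voom, a threshold of 0.1 or any library left out. The exceptions were library weights, with 16 of them and 3268 genes in all, and the gene-by-gene weights added later, with 3 and 618. Among all genes tested 2 passed under quantile normalization, 0 with exosome 1 and 3 both left out, and 0 to 9 with 1 library left out. The groups did not overlap for 9 of the 41 after scaling to equal sums, where 19.7% of all genes tested did not. With exosome 1 and 3 both left out the count was 14 (34.1%, against 51.5% of all genes). With 1 library left out it ran from 5 (12.2%) to 22 (53.7%), and the share of all genes from 25.8% to 48.4%. The count of 22 came without saline 1, where the share of all genes was 39.9%. The cause of these shifts was not tested. The count of genes with a positive difference ran from 24 to 37 over all settings, and the share of all genes moved too. It was 24 with exosome 1 and 3 both left out (58.5%, against 54.8% of all genes). With library weights it was 37 (90.2%, against 36.0%), and with the median of ratios 34 (82.9%, against 48.4%). Quantile normalization gave 30 (73.2%, against 47.8%).

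The sign of the log2 difference held for 20 of the 41 genes in every one of 20 other settings. It turned with equal sums for Myl6 (0.0142), Synpo2 (0.0109) and Dmd (0.034), and with the median of ratios for Myl6 (0.0484), Ppp1r14a (0.0245), Synpo2 (0.0449) and Dmd (0.0677). It turned under quantile normalization for Ppp1r12b (-0.0244) and Dmd (0.00993), and with voom for Dmd (9.24e-06). With library weights it turned for Myh11 (0.0828), Myl6 (0.183), Myl9 (0.13), Mylk (0.155), Ppp1r14a (0.157), Svil (0.0123) and Dmd (0.315). With gene-by-gene weights it turned for Myh11 (0.0119), Myl6 (0.123), Myl9 (0.0451), Mylk (0.0773), Ppp1r14a (0.101) and Dmd (0.19). With exosome 1 and 3 both left out, exosome 2 was the lone treated library, assumed to vary like the saline libraries. The sign then turned for Acta2 (-0.0624), Actg2 (-0.82), Tpm1 (-0.149), Tpm2 (-0.00869), Tpm4 (-0.0737), Cnn1 (-0.231), Tagln (-0.152), Smtn (0.104), Lmod1 (0.283), Ppp1r14a (0.0273), Casq2 (-0.106), Synpo2 (0.183), Ldb3 (-0.0826) and Vcl (-0.164).

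With 1 library left out, log2 differences spanned 0 for Myl6 (-0.178 to 0.113), Mylk (-0.203 to 0.00425), Ppp1r14a (-0.251 to 0.131), Dmd (-0.174 to 0.102), Actg2 (-0.239 to 0.823), Tpm1 (-0.146 to 0.366), Tpm2 (-0.155 to 0.246), Ppp1r12b (-0.0619 to 0.0911), Tagln (-0.0429 to 0.207), Lmod1 (-0.281 to 0.0147), Casq2 (-0.051 to 0.682), Synpo2 (-0.131 to 0.0687), Ldb3 (-0.00821 to 0.224) and Myh11 (-0.189 to 0.0168). Without changing sign, it moved by over 1.5 times for Acta2 (0.18 to 0.667), Tpm4 (0.0553 to 0.513), Cald1 (-0.275 to -0.099), Cnn1 (0.17 to 0.626), Smtn (-0.433 to -0.0804), Myh9 (0.139 to 0.473), Myl9 (-0.289 to -0.0228), Ppp1r12a (0.249 to 0.491), Pln (0.0111 to 0.201), Des (0.329 to 0.753), Synm (0.157 to 0.332), Actn1 (0.268 to 0.591), Flna (0.177 to 0.437), Svil (-0.193 to -0.0462), Csrp1 (0.0352 to 0.298), Pdlim3 (0.377 to 0.774), Pdlim7 (0.111 to 0.475), Vcl (0.0659 to 0.334) and Tln1 (0.167 to 0.401). The differences in log2 ratio spanned 0 for Acta2/Actg2 (-0.16 to 0.48), Cnn1/Cnn3 (-0.265 to 0.038), Tpm2/Tpm4 (-0.505 to 0.095) and Des/Vim (-0.099 to 0.355). Those of Myh11/Myh10 (-0.577 to -0.242) and Mylk/Ppp1r12a (-0.505 to -0.438) kept their sign.

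Same-numbered libraries did not deviate together over all genes (correlations of 0.068, 0.096 and -0.165). With 3 libraries per group, this cannot show whether the numbers pair them. Saline 1 was the highest saline library for 36 of the 41 genes (87.8%, against 28.7% of all genes tested). Exosome 1 was the highest exosome library for 22 of the 41 (53.7%, against 18.1%). With the number as a block, 0 of the 41 and 1 gene in all passed, and the Mylk/Ppp1r12a difference of -0.467 had an exact sign-flip permutation p of 0.25, the smallest that 3 pairs allow.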
